A study of Mus musculus with 46 samples.

Results

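The levels of 9 regulators of chromatin and transcription were followed in mouse embryonic fibroblasts (MEFs) in which the transcription factor ATF4 had been knocked out or left intact. They were Epc1 and Ing3 (subunits of the NuA4 acetyltransferase complex), Chd7 (a chromatin remodeller), Rnf20 and Wac (histone H2B ubiquitination), Anp32b (a histone chaperone), Sub1 (a transcriptional coactivator), and the zinc finger genes Zfp462 and Zfp292. Members were the rows of the count table whose Ensembl identifier belongs to these genes in GENCODE M21. They lie in 4 chromosome segments where row identifiers and genes match, and averaged at least 5 CPM (counts of a gene as a share of the library). Values by library or group of members and other named regulators were further scaled to a common library size by the TMM method. The filter, averages over all 46 libraries and the check of cell type genes used CPM without that scaling. The rule kept 9 of 9 genes, out of 55416 rows, of which 33929 held at least 1 count and 8986 passed the filter on low counts. The segments held 372 of the tested genes.

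RNA was sequenced from 46 libraries in a design of genotype by treatment. ATF4 KO MEFs were treated with borrelidin in 12 libraries and with vehicle in 11, and wild type MEFs with borrelidin in 12 and with vehicle in 11. Borrelidin, an inhibitor of threonyl tRNA synthetase, was given at 600 nM for 7 h in 1% DMSO by volume, and vehicle was the same share of DMSO alone. The question was which transcripts responded to borrelidin with ATF4 and which did so without it. The ATF4 KO line was made by CRISPR/Cas9 in the authors' laboratory and the wild type MEFs were purchased, so each genotype is 1 line, and the loss of ATF4 cannot be told apart from other differences between the lines. The libraries are given as biological replicates, with no more said of separate cultures, and p-values therefore measure the spread between these libraries.

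A stalled aminoacyl-tRNA synthetase leaves tRNA uncharged, which activates the kinase GCN2 and raises the translation of ATF4, a bZIP transcription factor that induces amino acid synthesis and transport genes. Chromatin regulators act at another level. NuA4 acetylates histones H4 and H2A through its catalytic subunit KAT5 (TIP60), the RNF20 and RNF40 ligase attaches ubiquitin to histone H2B behind elongating RNA polymerase II, and chaperones such as ANP32B handle free histones. They are broadly expressed, and most work as parts of complexes.

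Libraries held 2047362 to 3467765 counts assigned to genes, with group medians of 2885561 (ATF4 KO, borrelidin), 3031782 (ATF4 KO, vehicle), 2815098 (wild type, borrelidin) and 2904290 (wild type, vehicle). All 14 broadly or mesenchymally expressed genes listed for the segments, such as Cav1 and Flnc, averaged at least 10 CPM. Of 22 genes of other cell types, 19 averaged under 5 CPM and 6 were at 0 in every library, among them Asz1, Spam1 and Ccl19. The 1 gene of these 22 at 10 CPM or more was Irf5, an interferon regulatory factor of blood cells, at 404 CPM on average. The summed level of the 22 genes, most of it from Irf5, ranged from 489 to 1160 CPM in ATF4 KO with borrelidin, 314 to 503 CPM in ATF4 KO with vehicle, 261 to 369 CPM in wild type with borrelidin and 279 to 413 CPM in wild type with vehicle. Their part in the results below was not tested. Outside the segments the rows did not follow gene names (the row of Eef1a1, a translation factor gene of every cell, averaged 0.0146 CPM), and the loss of Atf4 itself was not analysed here. The shares of all tested genes given below are therefore shares of tested rows. Most of these rows lie outside the segments, where identifiers were not read as genes. The share called among the segment genes alone was not counted.

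Some libraries stood apart from their own group. On the second principal component, which carried 21.9% of the variance, 14 libraries formed a lower set: 3 of 12 in ATF4 KO with borrelidin (scores -11.3 to -6.66, the others at least 7.18), 3 of 11 in ATF4 KO with vehicle (-16.4 to -12.7, the others 3.31 to 5.56), 0 of 12 in wild type with borrelidin, and 8 of 11 in wild type with vehicle (-19.9 to -13.8, the others -0.427 to 1.52). The sample labels name no batch, but the split follows their numbering. The lower set is replicates 1 to 8 of wild type with vehicle and replicates 1 to 3 of each ATF4 KO group. Whether this order reflects batches was not tested. The sets are nearly balanced between treatments in ATF4 KO, but in wild type they nearly coincide with treatment, and there the set and borrelidin can only be separated through 3 vehicle libraries. Each comparison of a member was therefore also fitted with the set as a block and without the 14 libraries, as were the lists and other genes named below. The sets were defined on these same counts, and the paper describes its second component as separating samples by drug treatment. In wild type, leaving out the lower set removes the vehicle libraries farthest from borrelidin on this component. Part of a smaller wild type response in these fits can come from that choice, so they do not settle its size.

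Promoter sequence is shown for the 2 members whose start region held a motif searched for, Anp32b, the member with the largest response in wild type with all 46 libraries, and Ing3, a NuA4 subunit. The windows run from 250 bases before to 50 bases after the gene start in RefSeq (GRCm38.p6), and 5 of the 9 members had one (Zfp292, Anp32b, Rnf20, Ing3 and Sub1). The motifs were looked for on both strands: the C/EBP-ATF response element bound by ATF4 in 4 forms (ATTGCATCA, ATTTCATCA, GTTGCATCA and GTTTCATCA), a looser form of it (TGATGNAA, which overlaps the reverse complement of the strict forms), and the cAMP response element (TGACGTCA). Capitals mark the match. The Anp32b window is chr4:46450676-46450975 on the plus strand and the Ing3 window chr6:21949321-21949620 on the plus strand.
Anp32b: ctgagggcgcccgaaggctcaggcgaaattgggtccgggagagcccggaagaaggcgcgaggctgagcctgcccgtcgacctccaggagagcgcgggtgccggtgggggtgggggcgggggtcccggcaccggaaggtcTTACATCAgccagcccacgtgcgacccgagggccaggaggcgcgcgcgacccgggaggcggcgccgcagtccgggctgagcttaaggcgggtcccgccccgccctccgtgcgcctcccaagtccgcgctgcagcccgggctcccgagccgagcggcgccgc
Ing3: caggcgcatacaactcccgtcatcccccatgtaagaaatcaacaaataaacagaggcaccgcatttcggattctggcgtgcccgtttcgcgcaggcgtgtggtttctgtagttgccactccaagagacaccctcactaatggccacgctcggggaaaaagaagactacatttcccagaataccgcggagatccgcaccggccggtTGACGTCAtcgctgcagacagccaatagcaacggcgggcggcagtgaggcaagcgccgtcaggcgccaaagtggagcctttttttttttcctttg

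In Anp32b the match lies at chr4:46450815-46450822, from position -111 to -104 of the RefSeq start, and is the looser ATF4 form read on the minus strand, a form that 3.97% of 32851 mouse promoters of this length hold. In Ing3 the match lies at chr6:21949526-21949533, from position -45 to -38, and is the cAMP response element, held by 1.79% of promoters. Another RefSeq start of Ing3 has its own window, chr6:21949365-21949664, where the same match lies from position -89 to -82. None of the windows of the 5 members held a strict ATF4 form, which 0.837% of promoters do. However, the RefSeq start of Rnf20 lies 6619 bases inside its GENCODE gene and that of Sub1 976 bases inside. Regions upstream of those gene starts were therefore not searched. A match is a description of the letters and does not show that a factor binds there.

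Borrelidin changed 5 of the 9 members in ATF4 KO MEFs. Epc1, Ing3, Wac and Rnf20 rose and Sub1 fell in edgeR's quasi-likelihood test at an adjusted p threshold of 0.05, so 4 members were called higher, against 15.0% of all tested genes, and 1 was called lower, against 15.3% of all tested genes. At the strict threshold of 1e-10, Epc1 was called, where 0.490% of tested genes were. The median log2 fold change was 0.13 over the members, -0.03 over all tested genes and 0.04 over the tested genes of the segments.

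Borrelidin also changed 5 members in wild type MEFs, with 3 called higher in both genotypes (Ing3, Wac and Rnf20). Anp32b rose with these 3 and Zfp462 fell, giving 4 members called higher against a background of 26.5% and 1 called lower against 32.9%. With edgeR on the group means alone, no member passed the strict threshold, which 2.11% of tested genes did. Anp32b passed it with DESeq2, where 533 tested genes did, and in edgeR with replicate numbers as a block, where 186 did. The median log2 fold change was 0.20 over the members and -0.06 over all tested genes, but 0.18 over the tested genes of the segments, so the members stood close to their neighbours in this comparison. With the library set as a block 3 members were called higher (Anp32b, Rnf20 and Wac), where 1259 of the 8986 tested genes were higher and 1422 lower. Without the 14 libraries 2 were called higher (Anp32b and Chd7), where 873 were higher and 766 lower. The median over the segment genes was 0.01 with the block and 0.05 without those libraries.

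**Figure D1:**
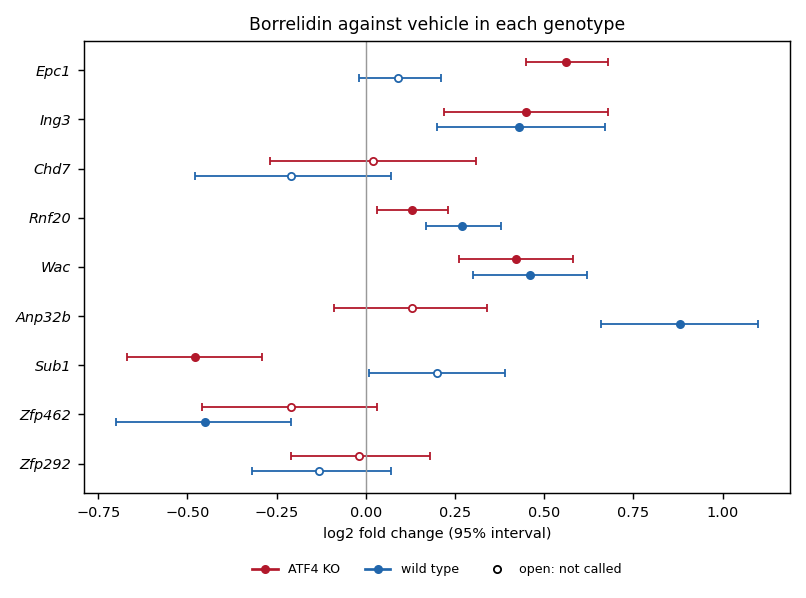
Log2 fold change of each member with borrelidin over vehicle, in ATF4 KO (red, upper of each pair) and wild type (blue, lower), with 95% intervals; filled points were called at an adjusted p of 0.05 by edgeR. With all 46 libraries Epc1 and Sub1 were called in ATF4 KO (0.56 and -0.48), Anp32b in wild type (0.88), and Ing3, Wac and Rnf20 in both; with the library set as a block, Ing3 was at 0.01 and Anp32b at 0.46 in wild type.

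The responses themselves were compared between the genotypes as wild type minus ATF4 KO. With all 46 libraries Anp32b and Sub1 were called higher in this difference, 2 members against 16.5% of tested genes, and Epc1 was called lower, 1 member against 17.1% of tested genes. At the strict threshold edgeR called 0 members and 0.501% of tested genes, and DESeq2 also called 0 members. For Ing3, Wac and Rnf20, called higher in both genotypes with all libraries, the differences were -0.02 (95% interval -0.35 to 0.31), 0.04 (-0.18 to 0.26) and 0.14 (SE 0.07), none of them called by edgeR. Equal responses were not shown, and the call depended on the libraries: with the set as a block the difference was -0.42 for Ing3 (edgeR adjusted p = 0.0011) and -0.24 for Wac (0.0076), and without replicate 5 of wild type with borrelidin it was 0.17 for Rnf20 (0.017).

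Epc1 encodes a scaffold subunit that ties KAT5 into NuA4. The gene lies at chr18:6435951-6516108 on the minus strand (GRCm38). It had 184, 224 and 274 CPM (lowest, median and highest library) in ATF4 KO with borrelidin, against 132, 154 and 177 CPM in ATF4 KO with vehicle. Every ATF4 KO library with borrelidin was above every one with vehicle. In wild type it had 118, 137 and 152 CPM with borrelidin, against 111, 131 and 144 CPM with vehicle, and these groups overlapped. Its mean was 225 ± 23.8 CPM (SD, n = 12) under borrelidin and 152 ± 11.5 CPM (n = 11) under vehicle in ATF4 KO, and 138 ± 9.03 CPM (n = 12) under borrelidin and 129 ± 10.3 CPM (n = 11) under vehicle in wild type.

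Epc1 rose by 1.48-fold in ATF4 KO (log2 fold change 0.56, SE 0.06, edgeR adjusted p = 6.1e-11). The log2 fold change in wild type was 0.09 (SE 0.06, edgeR adjusted p = 0.16). The difference of the responses, wild type minus ATF4 KO, was -0.47 (SE 0.08, edgeR adjusted p = 1.4e-05), and it was -0.52 with the library set as a block and -0.63 without the 14 libraries. The rise was thus larger in ATF4 KO under each of these fits. Within the 3 against 3 ATF4 KO libraries of the lower set, the values were 184 to 215 CPM with borrelidin and 154 to 177 CPM with vehicle, a log2 fold change of 0.33 (edgeR adjusted p = 0.053), and in the other ATF4 KO libraries it was 0.66 (adjusted p = 1.2e-10). When replicate numbers entered the fit as a block, edgeR's adjusted p was 1.2e-09, past 0.05 but not past the strict threshold.

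A transcript on the opposite strand, Gm28529, overlaps Epc1 and averaged 47.2 CPM. The strand setting of the counting is not given in the sources used here, so reads of the pair cannot be told apart. Gm28529 also rose in ATF4 KO (45.2 to 82.9 CPM with borrelidin, against 33.5 to 44.8 CPM with vehicle; log2 fold change 0.59, edgeR adjusted p = 5.6e-07), and it rose in wild type, where Epc1 was not called (38.9 to 64.4 CPM with borrelidin, against 33.4 to 47.4 CPM with vehicle; 0.39, edgeR adjusted p = 0.0002). The difference of its responses was -0.20 (edgeR adjusted p = 0.2). Both rises were also called with the library set as a block (0.58 and 0.30) and without the 14 libraries (0.69 and 0.41).

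Ing3 encodes the NuA4 subunit whose PHD finger reads methylated histone H3, and lies at chr6:21949571-21976038 on the plus strand. Its cAMP response element is the one printed above. It had 76.8, 127 and 149 CPM (lowest, median, highest) in ATF4 KO with borrelidin, against 57.7, 92.9 and 108 CPM with vehicle. The wild type libraries had 87.3, 104 and 125 CPM with borrelidin, against 56.9, 69.4 and 116 CPM with vehicle. Groups overlapped in both genotypes, with 9 of the 12 ATF4 KO libraries under borrelidin above every vehicle library.

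The rise of Ing3 was 1.37-fold in ATF4 KO (log2 fold change 0.45, SE 0.12, edgeR adjusted p = 0.0022) and 1.35-fold in wild type (0.43, SE 0.12, edgeR adjusted p = 0.0016). The ATF4 KO response stayed at 0.43 with the set as a block (adjusted p = 1.3e-07) and 0.45 without the 14 libraries (1.3e-06). The wild type response did not: it was 0.01 with the block (edgeR adjusted p = 0.94) and -0.05 without those libraries (0.77). The 8 wild type vehicle libraries of the lower set had 56.9 to 72.4 CPM, while the other 3 had 105 to 116 CPM, within the range under borrelidin. With the block the difference of the responses was -0.42 (edgeR adjusted p = 0.0011), and without the 14 libraries it was -0.50 (0.0025). Whether Ing3 responded to borrelidin in wild type MEFs therefore rests on which vehicle libraries are used.

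No other subunit of the NuA4 complex lay in the segments. Of 18 genes listed as subunits, 2 were there, and they are Epc1 and Ing3, both called higher with borrelidin in ATF4 KO (background 15.0%) and 1 of them, Ing3, in wild type (26.5%), a call lost with the library set as a block and without the 14 libraries. Kat5, Trrap and Ep400 were not analysed here.

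**Figure D2:**
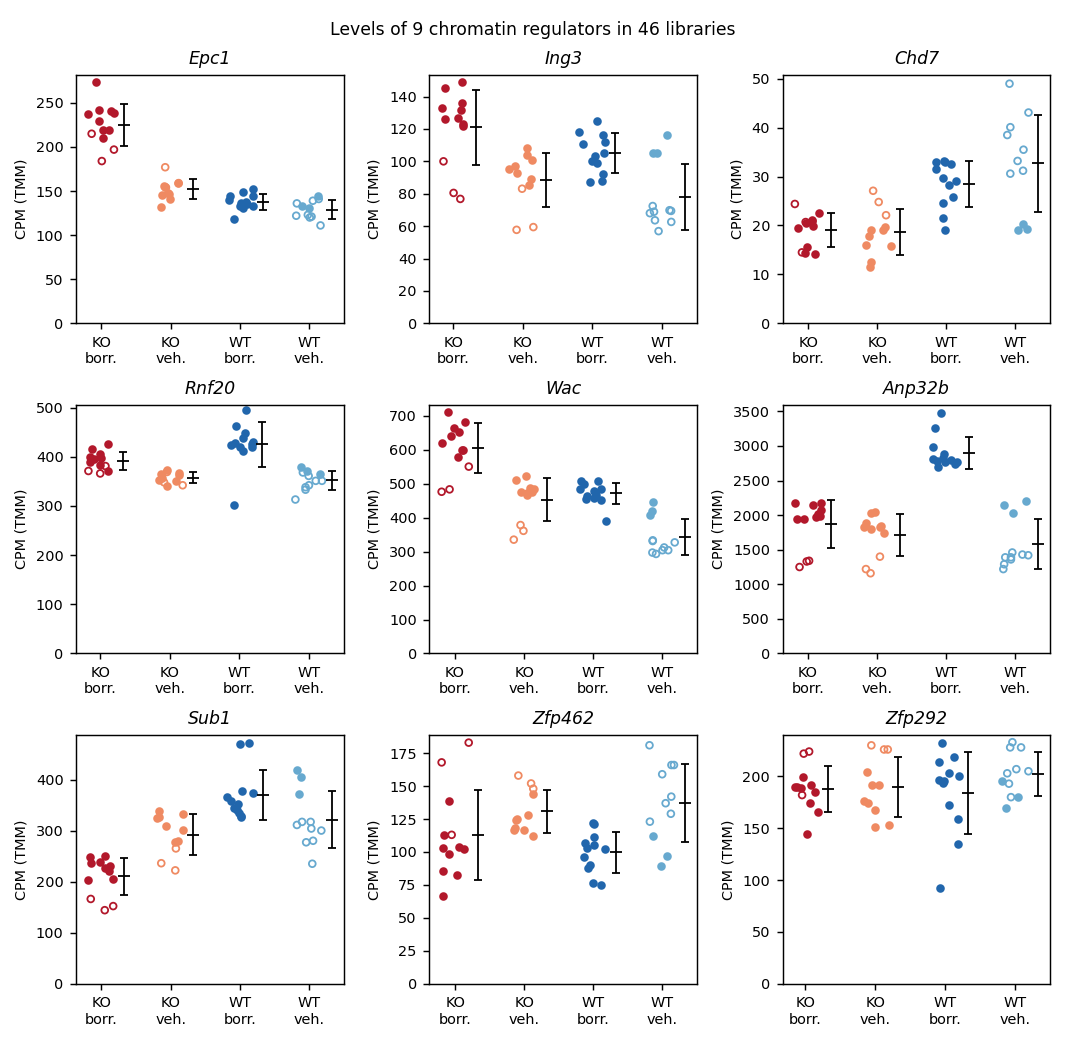
TMM-normalized CPM of each member in the 46 libraries (points), by group, with the mean and SD as a black bar; open circles are the 14 libraries of the lower set. Epc1 in ATF4 KO with borrelidin (184 to 274 CPM) and Anp32b in wild type with borrelidin (2690 to 3480 CPM) lie above every library of the other groups, while open circles sit at the low end for Ing3, Wac, Anp32b and Sub1.

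Chd7 encodes an ATP-dependent remodeller of nucleosomes whose loss in humans causes CHARGE syndrome, and lies at chr4:8690406-8867659 on the plus strand. It was the member of lowest level, and with all 46 libraries the one that differed most between genotypes under vehicle. It had 14.2, 20.2 and 24.4 CPM (lowest, median, highest) in ATF4 KO with borrelidin and 11.6, 19.1 and 27.1 CPM in ATF4 KO with vehicle, against 19.0, 29.4 and 33.2 CPM in wild type with borrelidin and 19.1, 33.2 and 49.0 CPM in wild type with vehicle. The genotypes overlapped under both treatments.

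Chd7 was lower in ATF4 KO by a log2 fold change of -0.80 under vehicle (SE 0.14, edgeR adjusted p = 1.1e-05) and -0.58 under borrelidin (SE 0.14, edgeR adjusted p = 0.0005). Under borrelidin it was -0.72 with the library set as a block and -0.61 without the 14 libraries, both called. Under vehicle it was -0.55 with the block (edgeR adjusted p = 0.00041) and -0.24 without those libraries (0.37), where the 3 remaining wild type vehicle libraries had 19.1 to 20.4 CPM, and the 8 of the lower set 30.6 to 49.0 CPM. Borrelidin gave log2 fold changes of 0.02 in ATF4 KO and -0.21 in wild type, neither called. The wild type value turned to 0.54 without the 14 libraries (edgeR adjusted p = 0.019).

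Rnf20 and Wac stand for the ubiquitination of histone H2B. RNF20 is a subunit of the E3 ligase, and WAC is an adaptor that binds this ligase and links it to RNA polymerase II. Both were called higher with borrelidin in both genotypes with all 46 libraries, where 15.0% of tested genes were in ATF4 KO and 26.5% in wild type. Without the 14 libraries neither was called in wild type. Of 11 genes listed for the pathway 2 lay in the segments, and these are the same 2.

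Rnf20 (chr4:49632006-49656887, plus strand) varied least of the members within 3 of the 4 groups. It had 366, 392 and 426 CPM (lowest, median, highest) in ATF4 KO with borrelidin, against 341, 357 and 373 CPM with vehicle. Its wild type values were 302, 427 and 496 CPM with borrelidin, against 313, 351 and 380 CPM with vehicle. In wild type 11 of 12 libraries with borrelidin exceeded every vehicle library, and the exception, replicate 5, was the lowest of all at 302 CPM.

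The Rnf20 change was small. In ATF4 KO it was 1.10-fold (log2 fold change 0.13, SE 0.05, edgeR adjusted p = 0.041), a call lost when replicate numbers were a block (edgeR adjusted p = 0.062). In wild type it was 1.21-fold (0.27, SE 0.05, edgeR adjusted p = 1.5e-05), 0.22 with the library set as a block (0.0016) and 0.20 without the 14 libraries (0.068). Between genotypes Rnf20 was called lower in ATF4 KO under borrelidin (-0.12, SE 0.05, edgeR adjusted p = 0.04), a call lost with the set as a block (0.056) and without the 14 libraries (0.082). Without replicate 5 of wild type with borrelidin, the difference of its responses, wild type minus ATF4 KO, was 0.17 and passed the test (edgeR adjusted p = 0.017).

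Wac (chr18:7868832-7929028, plus strand) had 476, 609 and 711 CPM (lowest, median, highest) in ATF4 KO with borrelidin, against 335, 475 and 523 CPM with vehicle. In wild type it had 390, 473 and 509 CPM with borrelidin, against 293, 327 and 445 CPM with vehicle. The highest group was ATF4 KO with borrelidin (mean 604 ± 73.4 CPM, SD, n = 12) and the lowest wild type with vehicle (343 ± 54.2, n = 11). Between them ATF4 KO with vehicle (452 ± 63.1, n = 11) and wild type with borrelidin (471 ± 32.2, n = 12) were closer than their SDs.

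Wac rose by 1.34-fold in ATF4 KO (log2 fold change 0.42, SE 0.08, edgeR adjusted p = 4.1e-05) and by 1.37-fold in wild type (0.46, SE 0.08, edgeR adjusted p = 4.1e-06). The ATF4 KO value was 0.42 with the set as a block and 0.38 without the 14 libraries, both called. The wild type value was 0.18 with the block (edgeR adjusted p = 0.0074) and 0.15 without those libraries (0.12). The difference of the Wac responses, wild type minus ATF4 KO, was 0.04 with all libraries (edgeR adjusted p = 0.8), -0.24 with the block (0.0076) and -0.23 without those libraries (0.084). Within the lower set, Wac was 476 to 550 CPM in ATF4 KO with borrelidin, against 335 to 378 CPM with vehicle. The direction in ATF4 KO was therefore present in each set. Wac was also higher in ATF4 KO than in wild type, by 0.40 under vehicle (edgeR adjusted p = 7.8e-05) and 0.36 under borrelidin (0.00011). Under vehicle it was 0.21 with the block (edgeR adjusted p = 0.00026) and 0.20 without the 14 libraries (0.043), and under borrelidin 0.45 and 0.43, both called. AC130718.2, an antisense transcript that overlaps Wac, averaged 16.4 CPM and was called in none of the 5 comparisons with all libraries, and in 1 with the set as a block (ATF4 KO over wild type under borrelidin, 0.30, edgeR adjusted p = 0.043).

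**Figure D3:**
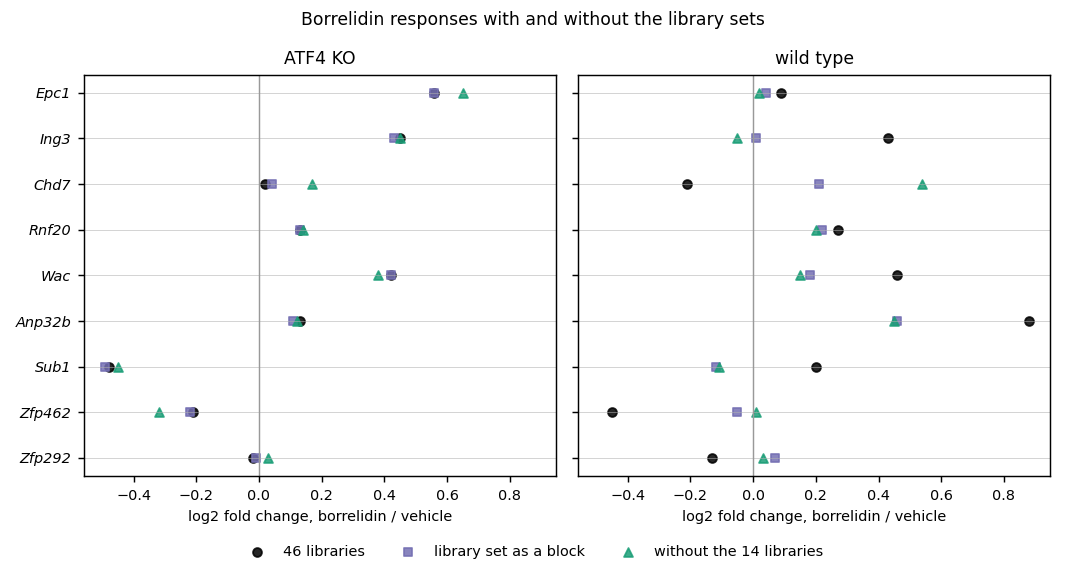
Log2 fold change with borrelidin over vehicle for each member in ATF4 KO (left) and wild type (right), fitted with all 46 libraries (black circles), with the library set as a block (purple squares) and without the 14 libraries of the lower set (green triangles). The 3 fits lie close together in ATF4 KO for Epc1 (0.56, 0.56 and 0.65), while in wild type Anp32b moved between 0.88 and 0.45 and Ing3 between 0.43 and -0.05.

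Anp32b encodes an acidic leucine-rich repeat protein that binds core histones as a chaperone, and lies at chr4:46450902-46472657 on the plus strand. Its promoter is the one printed above. Counted per kilobase of exon over all libraries it was the most abundant member, with 1159 CPM per kb, followed by Wac (79.0), Sub1 (74.6), Rnf20 (52.2), Epc1 (36.3), Ing3 (20.4), Zfp292 (19.2), Zfp462 (11.3) and Chd7 (1.79). Anp32b was highest, and Zfp462 and Chd7 lowest, in each of the 4 groups, but the order of neighbours depended on the group: in wild type Sub1 (94.2 and 81.8 CPM per kb with borrelidin and vehicle) was above Wac (79.6 and 57.9), and with vehicle Zfp292 was above Ing3 in both genotypes. It had 1250, 1990 and 2180 CPM (lowest, median, highest) in ATF4 KO with borrelidin, against 1160, 1830 and 2040 CPM with vehicle. The wild type libraries had 2690, 2800 and 3480 CPM with borrelidin, against 1220, 1420 and 2210 CPM with vehicle. Every wild type library with borrelidin was above every other library of the study, and the other 3 groups overlapped.

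Anp32b rose by 1.84-fold in wild type (log2 fold change 0.88, SE 0.11, edgeR adjusted p = 4.9e-09). In ATF4 KO the log2 fold change was 0.13 (SE 0.11, edgeR adjusted p = 0.4), and a small rise was called with the set as a block (0.11, adjusted p = 0.043) and in the ATF4 KO libraries outside the lower set (0.13, 0.021), but not without the 14 libraries (0.12, 0.061). Wild type minus ATF4 KO, the difference of the responses was 0.75 (SE 0.15, edgeR adjusted p = 0.0002). The size, though not the direction, depended on the library sets: the wild type response was 0.46 with the set as a block (edgeR adjusted p = 7e-10) and 0.45 without the 14 libraries (8.6e-06), and the difference of the responses was 0.35 (0.00012) and 0.33 (0.012). In the lower set of wild type with vehicle, 8 libraries had 1220 to 1460 CPM, and the other 3 had 2030 to 2210 CPM, all below the 2690 CPM of the lowest library with borrelidin. The processed pseudogene Anp32b-ps1, which could share reads with it, averaged 0.194 CPM.

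Sub1 encodes PC4, a single-stranded DNA binding cofactor of RNA polymerase II, and lies at chr15:11981339-11996983 on the minus strand. It was the only member called lower with borrelidin in ATF4 KO. It had 144, 224 and 251 CPM (lowest, median, highest) in ATF4 KO with borrelidin, against 222, 302 and 339 CPM with vehicle. Its wild type values were 326, 355 and 471 CPM with borrelidin, against 235, 311 and 418 CPM with vehicle. ATF4 KO libraries with borrelidin lay below every wild type library with borrelidin, and 6 of the 12 below every ATF4 KO library with vehicle.

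The fall of Sub1 in ATF4 KO was to 0.719 of the vehicle level (log2 fold change -0.48, SE 0.09, edgeR adjusted p = 0.0001). It was -0.49 with the library set as a block and -0.45 without the 14 libraries, both called, and -0.60 in the 3 against 3 libraries of the lower set (edgeR adjusted p = 0.0038). In wild type the log2 fold change was 0.20 (SE 0.09, edgeR adjusted p = 0.059), and it turned to -0.12 with the block (0.22) and -0.11 without the 14 libraries (0.48). The difference of the responses, wild type minus ATF4 KO, was 0.68 (SE 0.13, edgeR adjusted p = 0.00013), 0.38 with the block (0.0019) and 0.34 without those libraries (0.052). The sign of the wild type value thus turned with the vehicle libraries that were used.

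Zfp462 encodes a large zinc finger protein linked to heterochromatin in mouse embryonic stem cells, and lies at chr4:54945048-55083563 on the plus strand. It had 66.2, 103 and 183 CPM (lowest, median, highest) in ATF4 KO with borrelidin, against 112, 125 and 158 CPM with vehicle. In wild type it had 75.0, 103 and 122 CPM with borrelidin, against 89.5, 137 and 181 CPM with vehicle. Groups overlapped in both genotypes, and the SD of 34.4 CPM in ATF4 KO with borrelidin was the widest of its 4 groups.

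The fall of Zfp462 in wild type (log2 fold change -0.45, SE 0.12, edgeR adjusted p = 0.0016) was not called once the sets were taken into account: it was -0.05 with the block (edgeR adjusted p = 0.77) and 0.01 without the 14 libraries (0.98). The 3 wild type vehicle libraries outside the lower set averaged 99.4 ± 11.3 CPM (SD, n = 3), and the 12 with borrelidin 99.7 ± 15.3 CPM. In ATF4 KO the reverse held. The log2 fold change of -0.21 (SE 0.12, edgeR adjusted p = 0.19) was not called, but it was -0.22 with the set as a block (0.036), -0.32 without the 14 libraries (0.0088), and -0.24 with the ATF4 KO groups fitted alone, replicate numbers being a block (0.038).

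Zfp292 encodes a large zinc finger protein whose human counterpart is linked to intellectual disability, and lies at chr4:34803113-34882960 on the minus strand. It was the 1 member called in none of the 5 comparisons. It had 144, 189 and 224 CPM (lowest, median, highest) in ATF4 KO with borrelidin and 151, 192 and 230 CPM in ATF4 KO with vehicle, against 92.3, 197 and 232 CPM in wild type with borrelidin and 170, 203 and 233 CPM in wild type with vehicle. All 4 groups overlapped, and the highest group mean was 1.10 times the lowest. The 95% intervals of the borrelidin response ran from -0.21 to 0.18 in ATF4 KO and from -0.32 to 0.07 in wild type on the log2 scale. The low value of 92.3 CPM belongs to replicate 5 of wild type with borrelidin.

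Between the genotypes, 3 of the 9 members differed under vehicle and 6 under borrelidin. Under vehicle, Wac and Epc1 were called higher in ATF4 KO, 2 members against 18.1% of tested genes, and Chd7 was called lower, 1 member against 17.2%. The strict threshold was passed by 0 members with edgeR and by 2.63% of tested genes. Under borrelidin, Epc1 and Wac were called higher, 2 members against 25.7%, and Sub1, Anp32b, Chd7 and Rnf20 were called lower, 4 members against 24.1%. Under borrelidin 1 member, Epc1, passed the strict threshold, as did 5.49% of tested genes. The median log2 fold change of the members was 0.02 under vehicle and 0.03 under borrelidin, beside 0.00 and 0.04 over all tested genes. These comparisons share libraries with the borrelidin comparisons above, and their calls are not independent of them.

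Under borrelidin the genotypes did not overlap for 3 members. The share of all tested genes without overlap was not counted, so this is only a description of the 3. Epc1 was 1.64-fold higher in ATF4 KO (log2 fold change 0.71, SE 0.06, edgeR adjusted p = 1.7e-15). Sub1 was lower in ATF4 KO by a log2 fold change of -0.82 (SE 0.09, edgeR adjusted p = 2.6e-10), and Anp32b by -0.64 (SE 0.11, edgeR adjusted p = 1.8e-06). These 3 were also called with the library set as a block (0.73, -0.72 and -0.51) and without the 14 libraries (0.76, -0.70 and -0.51). Ing3, at 0.20 with all libraries (edgeR adjusted p = 0.13), was called higher in both of those fits, at 0.34 (8.7e-06) and 0.33 (2.3e-05).

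Under vehicle more of the values moved with the library sets. Epc1 was higher in ATF4 KO by a log2 fold change of 0.24 (SE 0.06, edgeR adjusted p = 0.00091), 0.21 with the set as a block (0.0038) and 0.12 without the 14 libraries (0.3). Sub1 was at -0.14 with all libraries (edgeR adjusted p = 0.27), and was called lower with the block (-0.34, 2.4e-05) and without the 14 libraries (-0.36, 0.0048). Anp32b changed sign, at 0.12 with all libraries (edgeR adjusted p = 0.42), -0.16 with the block (0.0086) and -0.18 without them (0.07).

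The members share their chromosome segments with other genes, whose medians are given as a description. On chromosome 18, where Epc1 and Wac lie, the 26 tested genes between 4634878 and 10562940 had a median log2 fold change, ATF4 KO over wild type, of 0.36 under vehicle and 0.30 under borrelidin. Wac (0.40 and 0.36) sat close to that median, as it did under vehicle with the library set as a block (0.21, median 0.21) and without the 14 libraries (0.20, median 0.26). With all libraries Epc1 was below it under vehicle (0.24) and above it under borrelidin (0.71). On chromosome 15, where Sub1 lies, the 66 tested genes had medians of -0.12 and -0.32. The medians were 0.16 and 0.03 for the 217 tested genes of the chromosome 4 segment, with 5 members, and 0.10 and -0.04 for the 63 of chromosome 6, with Ing3. The chromosome 4 and 6 medians under vehicle were 0.00 and 0.01 with the block, and the medians of all 4 segments together were 0.12 with all libraries and -0.01 with the block. The part of these shifts in the genotype differences was not tested.

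**Figure D4:**
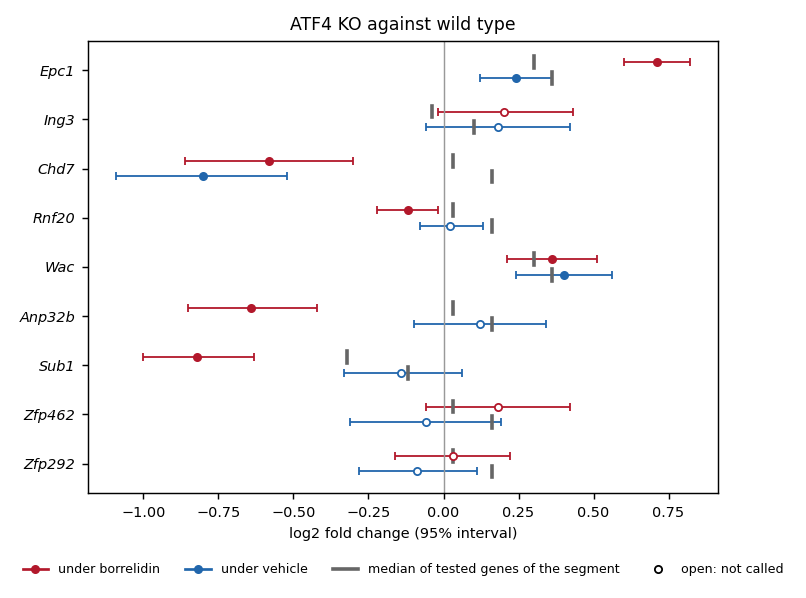
Log2 fold change of each member in ATF4 KO over wild type under borrelidin (red, upper of each pair) and under vehicle (blue, lower), with 95% intervals; grey ticks give the median of the tested genes of the same segment, and filled points were called at an adjusted p of 0.05 by edgeR. Epc1 under borrelidin (0.71) lies beyond the chromosome 18 median of 0.30, and Wac (0.36) near it.

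Other nuclear regulators of the same chromosomes were counted from a list of 45, of which 31 lay in the segments and 27 were tested. With borrelidin in ATF4 KO, 14 were called higher, 3 lower and 10 not called, with a median log2 fold change of 0.26, where 15.0% of all tested genes were called higher and 15.3% lower. In wild type 15 were called higher, 5 lower and 7 not called, with a median of 0.28, beside 26.5% and 32.9% of all tested genes. For the difference of the responses 9 were called higher and 7 lower, beside 16.5% and 17.1%. With the library set as a block, 16 were called higher and 4 lower in ATF4 KO (median 0.25). In wild type 9 were higher and 4 lower (0.05), and in the difference 4 higher and 8 lower (-0.13). Of 8986 tested genes, that fit called 1847 higher and 2025 lower in ATF4 KO, and 1259 and 1422 in wild type. In the difference that fit called 998 higher and 831 lower. Without the 14 libraries the counts of the list were 17 and 6 in ATF4 KO, 9 and 3 in wild type, and 3 and 6 in the difference. The shares of all tested genes were 20.7% and 20.4%, 9.72% and 8.52%, and 6.32% and 3.36%, in the same order.

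Of that list, the 4 largest called changes in ATF4 KO were Zfp438 (a zinc finger gene; log2 fold change 1.22), Irf5 (0.92), Pax5 (the B cell regulator; 0.80) and Zfr (a zinc finger RNA binding protein; 0.74). Zfp438 had 35.4 ± 8.68 CPM with borrelidin, against 15.2 ± 2.94 CPM with vehicle, in ATF4 KO (SD, n = 12 and 11). Pax5 was called higher in ATF4 KO than in wild type under both treatments, with 9.53 to 39.3 CPM under borrelidin and 4.27 to 16.4 CPM under vehicle, against 0 to 1.12 CPM in wild type with borrelidin and 0 to 1.33 CPM in wild type with vehicle. Irf5 and Pax5 are also among the 22 genes of other cell types given above. The rises of these 4 genes in ATF4 KO were also called with the library set as a block and without the 14 libraries.

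In wild type the 4 largest called changes were Mdfic (an inhibitor of MyoD family factors; 1.53), Klf4 (a Krüppel-like factor; 1.35), Bach2 (a transcriptional repressor of lymphocytes; -1.21) and Smu1 (a splicing factor; 0.68). Mdfic had 386 ± 40.9 CPM with borrelidin, against 133 ± 16.5 CPM with vehicle, in wild type (SD, n = 12 and 11), and 161 ± 14.7 against 150 ± 18.6 CPM in ATF4 KO. Mdfic and Klf4 were also called in wild type with the library set as a block (1.34 and 1.32) and without the 14 libraries (1.32 and 1.49), whereas without them Bach2 was at 0.07 and Smu1 at 0.05, neither called by edgeR (adjusted p = 0.88 and 0.69). The Mdfic pattern was like that of Anp32b in that the wild type libraries with borrelidin, 293 to 448 CPM, were above all others.

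Genes whose levels followed the members over the 46 libraries were sought among 335 genes of the segments, as a description. On log2 CPM the closest were Tmem67 for Epc1 (Pearson r = 0.91), Nbn for Ing3 (0.88), 6030458C11Rik for Chd7 (0.78), Tnpo3 for Rnf20 (0.81), Plekhf2 for Wac (0.94), Cct5 for Anp32b (0.97), Cox6c for Sub1 (0.91), Svil for Zfp462 (0.81) and Vps13b for Zfp292 (0.71). The libraries share groups and sets, which alone gives genes like profiles. On deviations from the 4 group means, which remove the groups but not the sets, the closest gene to Anp32b was again Cct5 (0.98), to Zfp292 again Vps13b (0.82), to Sub1 Rpp25l (0.94), to Wac Map3k7 (0.91), to Ing3 Melk (0.87), to Zfp462 and Chd7 Trio (0.82 and 0.80), to Rnf20 AC113003.1 (0.79) and to Epc1 Pot1a (0.56).

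Among themselves the members fell along the same lines. On deviations from the group means Anp32b went with Sub1 (r = 0.88), Wac (0.82) and Ing3 (0.80), and against Zfp462 (-0.71). Epc1 was nearly unrelated to Wac on this scale (0.16), although both lie in one segment and had r = 0.73 with the groups left in. In bulk RNA a lower level can come from fewer cells that express a gene or from less of its RNA per cell, and these cannot be told apart.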

How the data were processed

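RNA-seq reads of 46 MEF libraries were counted per mouse gene by the authors, who trimmed and aligned them to mm10 with HISAT2. For the counting the paper names feature counts, whereas the submitters' processing notes name HTSeq. Their versions, the strand setting and the annotation were not given in the sources used here. Deposited values are raw counts, with replicates kept apart. The 5 closing rows that name no gene (on average 69.0% of reads in no feature, 10.8% not aligned, 5.1% of low quality, 4.0% not unique and 0.3% ambiguous) stayed out of library sizes and tests. Of the identifiers, 3333 were absent from GENCODE M21. Within the segments, which hold 8.47% of the counts, identifiers were read as genes.

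Counts were analysed with edgeR 4.0.16 in R 4.3.3 (TMM, filterByExpr, quasi-likelihood test on 4 group means, Benjamini-Hochberg adjustment over 8986 rows, calls at 0.05 and 1e-10). One model the authors state, limma on ATF4 activity and genotype, has no term for a response in ATF4 KO. Its terms were fitted with edgeR as an alternative, with activity marked only in wild type with borrelidin. Other alternatives were DESeq2 1.42.0, limma 3.58.1 (voom), other size factors, no filter, a replicate block, the compared groups alone, and both treatments of the library sets. The sets came from the 500 most variable rows, where a gap on the second component exceeded 50% of a group's range. Tables were made in Python 3.11.15. The steps were tested on simulated data with 200 changed genes. No pair of the 46 libraries was a duplicate (chi-square per degree of freedom at least 1.96 within groups and 6.42 between them). The numbers of replicates are those of the labels, which do not say what a number shares. Same-numbered deviations correlated at over 0.1 in 11 of 11 ATF4 KO pairs (0.18 to 0.78), but in 2 of 11 wild type pairs. Among the 8 ATF4 KO pairs outside the lower set, 2 correlated at over 0.1 once deviations were taken within the set. The test on 4 group means used no pairing, and replicate numbers entered only as a block in alternative fits.

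Named genes were all members, the 4 largest called changes of the list of nuclear regulators in each borrelidin comparison, and the most alike gene of each member. The members and lists were chosen with earlier results of these data known. A pseudocount of 0.5 was used for correlations.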

Additional observations from a re-analysis of the deposited data

Results flagged for a closer look

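Of the members, 3 responded to borrelidin differently in the genotypes by a test of the difference itself (edgeR, wild type minus ATF4 KO, all 46 libraries). This test called 16.5% of all tested genes higher and 17.1% lower, so the share of members was near that of all tested genes. For Anp32b the response was 0.13 in ATF4 KO and 0.88 in wild type, a difference of 0.75 on the log2 scale (adjusted p = 0.0002). For Sub1 it was -0.48 in ATF4 KO and 0.20 in wild type, a difference of 0.68 (adjusted p = 0.00013). For Epc1 it was 0.56 in ATF4 KO and 0.09 in wild type, a difference of -0.47 (adjusted p = 1.4e-05). With the library set as a block 5 members were called, with Ing3 (-0.42, adjusted p = 0.0011) and Wac (-0.24, 0.0076) added. In that fit 11.1% of tested genes were called higher and 9.25% lower. Without the 14 libraries 3 members were called, Anp32b (0.33, 0.012), Epc1 (-0.63) and Ing3 (-0.50, 0.0025), and Sub1 was not (0.34, 0.052). Without those libraries 6.32% of tested genes were called higher and 3.36% lower. The Epc1 difference widened and the differences of Anp32b and Sub1 narrowed when the library sets were taken into account.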

How the results depend on the processing

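Of 432 values of single members under other settings, 361 kept their direction and side of the threshold, 18 lost a call, 16 gained one and 37 changed sign, and the cause was not tested. The settings without the WT_borrelidin library of replicate 5, with the ATF4 KO groups alone and with either set of ATF4 KO libraries were chosen after seeing the data.

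Counts of members called moved as follows, beside the counts over all tested genes. The main fit is edgeR on all 46 libraries and the 4 group means. Borrelidin in ATF4 KO gave 2 in place of 5 with only the 3 against 3 libraries set apart, and 7 with the set as a block and in the libraries not set apart. It gave 6 without the 14 libraries and with the ATF4 KO groups alone with the block, and 4 with no filter and with the replicate block. Of 8986 tested genes, 1344 were called higher and 1377 lower in the main fit, and 366 and 363 in the 3 against 3 libraries. These counts were 1847 and 2025 with the set as a block, and 2155 and 2044 in the libraries not set apart. They were 1860 and 1835 without the 14 libraries, and 1821 and 1964 with the ATF4 KO groups alone with the block. They were 1456 and 1543 with the replicate block, and 1088 and 977 of 33929 rows with no filter. At the strict threshold, borrelidin in ATF4 KO gave 0 in place of 1 without a filter, with the replicate block and with the 2 groups alone. It also gave 0 with the ATF4 KO groups alone with the block and in either set, and 2 with the library set as a block. Of tested genes 44 passed in the main fit, 40 without a filter, 37 with the replicate block and 180 with the set as a block. With the 2 groups alone 3 passed, with the ATF4 KO groups alone with the block 6, in the set apart 0 and in the other set 126. Borrelidin in wild type gave 3 with the set as a block and 2 without the 14 libraries, in place of 5. For it 2379 tested genes were called higher and 2958 lower in the main fit. These counts were 1259 and 1422 with the block, and 873 and 766 without those libraries. At the strict threshold borrelidin in wild type gave 1 in place of 0 with DESeq2 and with the replicate block. There 533 and 186 tested genes passed, in place of 190. The difference of the responses gave 5 in place of 3 with the set as a block, as did the genotypes under vehicle. For the difference 998 tested genes were called higher and 831 lower with the block, in place of 1486 and 1536. For the genotypes under vehicle these counts were 1574 and 1580, in place of 1625 and 1547. The genotypes under borrelidin gave, at the strict threshold and in place of 1, 2 with DESeq2 and with the replicate block, 4 with the set as a block, 3 without the 14 libraries and 0 with the 2 groups alone. Here 493 tested genes passed in the main fit, 908 with DESeq2 and 497 with the replicate block. With the set as a block 828 passed, without the 14 libraries 667, and with the 2 groups alone 339.

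Changes of sign with the set as a block were, in wild type with borrelidin, Chd7 0.21, Zfp292 0.07 and Sub1 -0.12; in the difference of the responses, Chd7 0.17, Zfp292 0.07, Zfp462 0.17 and Wac -0.24; in the genotypes under vehicle, Zfp292 0.03, Anp32b -0.16, Rnf20 -0.01, Zfp462 0.19 and Ing3 -0.09; and under borrelidin, Zfp292 -0.05. Without the 14 libraries they were Zfp292 0.03 in ATF4 KO with borrelidin; Chd7 0.54, Zfp292 0.03, Zfp462 0.01, Ing3 -0.05 and Sub1 -0.11 in wild type with borrelidin; Chd7 0.37, Zfp462 0.33 and Wac -0.23 in the difference; Anp32b -0.18, Rnf20 -0.05, Zfp462 0.31 and Ing3 -0.17 in the genotypes under vehicle; and Zfp292 -0.04 and Zfp462 -0.02 under borrelidin. In the ATF4 KO response, Chd7 was -0.26 and Zfp462 0.07 in the set apart, and Zfp292 was 0.04 in the other set, 0.01 with no filter and 0.01 without replicate 5 of wild type with borrelidin, a setting that gave Zfp292 -0.04 between genotypes under borrelidin. The Ing3 difference of responses was 0.01 with no filter, 0.02 with limma and 0.00 with the replicate block. The replicate block otherwise lost Rnf20 in ATF4 KO (0.13) and between genotypes under borrelidin (-0.12), and called Sub1 in wild type (0.21).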

Other observations

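One library held low values of several members at once. Replicate 5 of wild type with borrelidin was the lowest of its group for Rnf20 (302 CPM), Zfp292 (92.3), Wac (390), Epc1 (118), Ing3 (87.3), Chd7 (19.0) and Zfp462 (75.0), while its Anp32b (3260) and Sub1 (470) lay near the top. It had the largest deviation of the 46 libraries from its group medians (root mean square 0.875 on log2 CPM). Without it Epc1 was called higher with borrelidin in wild type (log2 fold change 0.13, edgeR adjusted p = 0.044).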
